A study of Homo sapiens with 6 samples.

Results

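The 10 genes described here are 9 on the route from tryptophan to nicotinamide adenine dinucleotide (NAD) and, set against them, the gene of the salvage enzyme NAMPT. They were chosen by symbol among 58037 gene rows: TDO2, IDO1, AFMID, KMO, KYNU, HAAO, ACMSD, QPRT and NADSYN1 for the route from tryptophan, and NAMPT for salvage. The choice was made with the fatty acid against control differences of these data known, so what follows describes those differences and draws no support from the number of genes that passed. The cells were differentiated HepaRG, a human hepatic line (labelled as hepatocellular carcinoma cells) whose differentiated cultures hold both hepatocyte-like and biliary-like cells, at passages 15 to 18. In the fatty acid group, 3 samples received 0.5 mM palmitate and oleate (1 part to 2 parts) bound to bovine serum albumin (BSA, 0.02%) for 72 h, and in the control group 3 samples received the medium with 0.02% BSA alone for 72 h. All 6 had been kept for 5 days in basal medium with insulin and hydrocortisone hemisuccinate. The labels do not say whether replicates were separate cultures, so the spread behind each p-value is that between samples and could be technical only.

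The liver degrades most dietary tryptophan through kynurenine. A dioxygenase opens the indole ring, the formyl group is removed, the ring is hydroxylated and the side chain is cleaved, and the product is oxidized to aminocarboxymuconate semialdehyde (ACMS). ACMS either closes without an enzyme to quinolinate, from which NAD is built, or is removed by the decarboxylase ACMSD. Cells also rebuild NAD from the nicotinamide that NAD-consuming enzymes release, and NAMPT catalyses the rate-limiting step of that salvage. Expression is given in FPKM, the reads of a gene divided by the length of its exons and scaled to the assigned reads of its library.

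Fatty acid loading went with higher expression of NAMPT and KYNU and with lower expression of TDO2, AFMID, HAAO and ACMSD. KMO, QPRT and NADSYN1 did not pass the threshold, and IDO1 was too low to test. The test was the limma linear model on log2(FPKM + 0.5) of all 14661 genes that averaged 0.5 FPKM or more, with Benjamini-Hochberg adjusted p under 0.05 as the threshold, and log2 fold changes are fatty acid minus control on that scale, which understates the change of low genes. Of the 10 genes 9 passed the expression minimum, and 6 of these were called, 2 higher and 4 lower. Over all tested genes 12.9% were called, 8.22% higher and 4.68% lower, and since the genes were chosen with this contrast known the count is given without further reading. Counted instead by whether the 3 values of each group overlapped, 2 genes lay higher and 5 lower, the fifth being NADSYN1, against 37.1% of all tested genes without overlap, 23.7% higher and 13.3% lower. The median log2 fold change was -0.36 over the 9 tested genes and 0.04 over all tested genes.

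**Figure D1:**
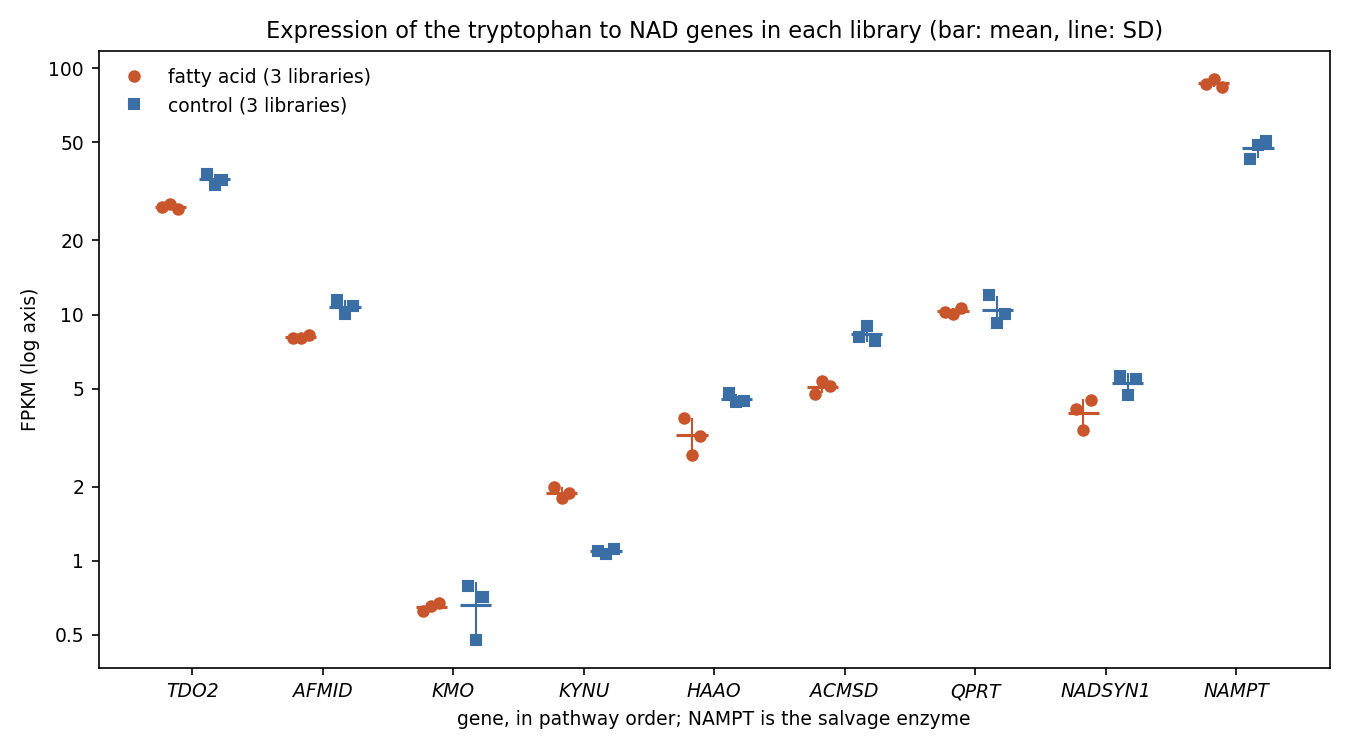
FPKM (log axis) of 9 genes in pathway order, with 1 point per library, the fatty acid group left of the control group, bars for the mean and lines for the SD (n = 3 each). IDO1, with 1 read in all, is not drawn. NAMPT and KYNU lie higher in all 3 fatty acid libraries, and TDO2, AFMID, HAAO, ACMSD and NADSYN1 lie lower.

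The promoters of TDO2, the entry step, and HAAO, the step into ACMS, which fell, and of KYNU and NAMPT, which rose, are shown to set their sequences beside the direction in which each gene moved. Each line holds the 250 bases before the RefSeq start (build GRCh38.p14), read 5′ to 3′ on the gene's strand, for TDO2 (chr4:155903446-155903695, plus strand), HAAO (chr2:42792584-42792833, minus strand), KYNU (chr2:142877414-142877663, plus strand) and NAMPT (chr7:106284984-106285233, minus strand). Capitals mark matches on either strand to 8 motifs. These were the TATA box TATAAA, the GC box, which reads GGGCGG, the CCAAT box, the core GTTAAT of an HNF1 site, the core CAAAGTC of an HNF4 site, the E-box CACGTG, a loose form of the AP-1 site, TGANTCA, in which N is any base, and an NF-kappaB site that runs GGG, then any 2 bases, then TTTCC.
TDO2: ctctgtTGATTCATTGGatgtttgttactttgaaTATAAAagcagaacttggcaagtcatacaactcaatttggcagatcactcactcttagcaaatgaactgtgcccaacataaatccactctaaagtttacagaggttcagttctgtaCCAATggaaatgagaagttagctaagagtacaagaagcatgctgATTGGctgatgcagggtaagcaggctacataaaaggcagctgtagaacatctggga
HAAO: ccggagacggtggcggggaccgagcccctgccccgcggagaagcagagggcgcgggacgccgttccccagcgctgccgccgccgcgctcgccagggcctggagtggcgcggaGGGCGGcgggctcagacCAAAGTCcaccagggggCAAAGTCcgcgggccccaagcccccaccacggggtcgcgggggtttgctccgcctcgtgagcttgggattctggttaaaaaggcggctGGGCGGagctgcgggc
KYNU: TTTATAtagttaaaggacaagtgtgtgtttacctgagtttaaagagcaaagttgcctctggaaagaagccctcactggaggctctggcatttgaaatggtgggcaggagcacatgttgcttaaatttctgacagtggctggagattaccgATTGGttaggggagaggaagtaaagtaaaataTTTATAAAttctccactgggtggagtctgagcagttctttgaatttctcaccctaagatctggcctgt
NAMPT: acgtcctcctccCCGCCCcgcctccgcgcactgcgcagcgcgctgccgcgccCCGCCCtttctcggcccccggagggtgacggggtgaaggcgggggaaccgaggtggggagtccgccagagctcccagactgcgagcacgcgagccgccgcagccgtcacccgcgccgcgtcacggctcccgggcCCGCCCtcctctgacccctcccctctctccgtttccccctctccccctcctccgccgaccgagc
The 2 genes that rose have unlike windows: the NAMPT window is 77.2% G and C with 3 GC boxes, all on the reverse strand, and the KYNU window is 42.4% G and C with 3 TATA matches and 1 CCAAT box. Of the KYNU TATA matches, 2 are on opposite strands and overlap, starting 68 and 66 bases before the start, and the other starts 250 bases before it. Nor do the 2 shown that fell resemble each other, as the TDO2 window is 40.0% G and C with 1 TATA match, 216 bases before the start, 3 CCAAT boxes and 1 match to the loose AP-1 form. That match reads TGATTCA and adjoins a CCAAT box with 1 base in common. The HAAO window is 74.8% G and C with 2 GC boxes and 2 HNF4 cores, 121 and 104 bases before the start. The median window is 58.0% G and C. Among 35116 RefSeq windows of the same length, 10.7% hold TATAAA, 42.6% GGGCGG, 32.0% CCAAT, 6.2% GTTAAT, 2.9% CAAAGTC, 6.3% CACGTG, 6.6% TGANTCA and 1.7% the NF-kappaB site. A match describes the letters and is no evidence of binding. The TDO2 and NAMPT windows lie inside the gene positions given below, which reach farther upstream than the RefSeq start. Windows were found for 8 of the 10 genes, and AFMID and NADSYN1, at 70.4% and 77.6% G and C, held 3 and 5 GC boxes. AFMID also held TATAAA 31 bases before the start and a CCAAT box. The KMO window, at 36.0% G and C, held TATAAA 29 bases before the start, CCAAT matches and the HNF1 core.

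The first step is shared by 2 dioxygenases that open the indole ring. TDO2, the hepatic tryptophan dioxygenase (chromosome 4, 155854738 to 155920406), had 27.3, 28.1 and 26.9 FPKM in the fatty acid libraries, against 37.3, 33.7 and 35.1 FPKM in the control libraries. All 3 fatty acid values lie under the lowest control value. TDO2 fell to 27.4 ± 0.622 FPKM in the fatty acid group, against 35.4 ± 1.81 FPKM in the control group (SD, n = 3 each), a log2 fold change of -0.36 ± 0.06 (SE, limma adjusted p = 0.00867). It rested on 5587 reads in the fatty acid libraries and 5070 in the control libraries. IDO1, the dioxygenase of the same reaction outside the liver, which interferon induces (chromosome 8, 39902275 to 39928444), had 1 read in fatty acid replicate 3 and 0 reads in the other 5 libraries. A count of 0 allows up to 3 reads per library, which is 0.11 FPKM at fatty acid replicate 1 and 0.145 FPKM at control replicate 2, the shallowest library of each group. Expression of IDO1 was therefore not detectable at this depth beyond that 1 read.

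AFMID, the arylformamidase that frees kynurenine from its formyl form (chromosome 17, 78187317 to 78207701), fell with TDO2. It had 8.004, 8.015 and 8.275 FPKM in the fatty acid libraries, against 11.49, 10.03 and 10.80 FPKM in the control libraries. The fatty acid values differed by less among themselves than the control values did, and the groups did not overlap. The log2 fold change was -0.39 ± 0.07 (limma adjusted p = 0.013), close to that of TDO2 before it.

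KMO, the mitochondrial monooxygenase that hydroxylates kynurenine (chromosome 1, 241532134 to 241595642), was the lowest of the tested genes of the route. It had 0.623, 0.656 and 0.675 FPKM in the fatty acid libraries, against 0.788, 0.478 and 0.711 FPKM in the control libraries. The fatty acid values lie inside the range of the control values. The log2 fold change was 0.00 with a 95% interval of -0.39 to 0.39 (limma adjusted p = 1.0), an interval that holds a change of the size seen in TDO2. Behind these values stood 18 to 64 reads per library. In the annotation, 28.4% of the exonic bases of KMO also lie in exons of OPN3 on the opposite strand, a gene with 9.13 FPKM in the fatty acid group and 8.68 FPKM in the control group. No source used here says whether reads were counted by strand, and reads from the overlap may belong to either gene.

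KYNU, the kynureninase that cleaves the side chain of hydroxykynurenine and also of kynurenine (chromosome 2, 142877498 to 143055832), was the step of the route that rose. It had 2.00, 1.80 and 1.88 FPKM in the fatty acid libraries, against 1.10, 1.07 and 1.12 FPKM in the control libraries. Every fatty acid value is above every control value, with a wide gap beside the spread of each group. KYNU rose to 1.89 ± 0.099 FPKM in the fatty acid group, against 1.09 ± 0.0236 FPKM in the control group (SD, n = 3 each), a log2 fold change of 0.59 ± 0.10 (limma adjusted p = 0.0134). By log2 fold change it ranked 308 from the top of the 14661 tested genes. Its size depended on the setting, from 0.47 with a pseudocount of 1 to 0.83 after rescaling to TPM. It was 0.74 with a pseudocount of 0.1 and 0.78 with voom on the recovered reads, so the rank holds for the added 0.5 only.

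HAAO, the dioxygenase that turns hydroxyanthranilate into ACMS (chromosome 2, 42767089 to 42792593), follows KYNU and moved the other way. It had 3.82, 2.68 and 3.20 FPKM in the fatty acid libraries, against 4.79, 4.40 and 4.44 FPKM in the control libraries. The groups did not overlap, but the fatty acid values were the more scattered, with a coefficient of variation of 17.6% in the fatty acid group and 4.69% in the control group. The log2 fold change was -0.44 ± 0.12, and the limma adjusted p of 0.0472 lay close to the threshold. The call was lost without any 1 of the libraries other than fatty acid replicate 1 (adjusted p 0.0749 to 0.134), with no filter (0.116), without the intensity trend of the model (0.0717) and after rescaling to TPM (0.0874). HAAO is the gene shown above with 2 HNF4 cores in its promoter window.

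Next the route divides, and the gene on each side differed in what it did. ACMSD, the decarboxylase that takes ACMS away from quinolinate (chromosome 2, 134838547 to 134902034), had 4.77, 5.35 and 5.14 FPKM in the fatty acid libraries, against 8.13, 8.96 and 7.81 FPKM in the control libraries. The highest fatty acid value is well below the lowest control value. ACMSD fell to 5.08 ± 0.296 FPKM in the fatty acid group, against 8.30 ± 0.596 FPKM in the control group (SD, n = 3 each), a log2 fold change of -0.66 ± 0.08 (limma adjusted p = 0.0029), the largest fall among the 9 tested genes. It ranked 405 from the bottom of all tested genes and was called under all 17 alternative settings run on it. An antisense gene, CCNT2-AS1, shares 3.4% of its exonic bases.

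QPRT, the phosphoribosyltransferase that commits quinolinate to NAD (chromosome 16, 29679008 to 29698699), had 10.21, 10.04 and 10.63 FPKM in the fatty acid libraries, against 12.006, 9.237 and 10.06 FPKM in the control libraries. The groups overlapped. The log2 fold change was -0.01 with a 95% interval of -0.23 to 0.21 (limma adjusted p = 0.95). Exons of AC009133.22 on the same strand, a gene listed at 0 in both groups, share 15.7% of the exonic bases of QPRT. NADSYN1, the synthetase that amidates the last intermediate to NAD (chromosome 11, 71453109 to 71524107), had 4.12, 3.39 and 4.49 FPKM in the fatty acid libraries, against 5.62, 4.70 and 5.49 FPKM in the control libraries. Its groups did not overlap, and the gap between them was narrow. The log2 fold change was -0.36 with a 95% interval of -0.63 to -0.10, and the limma adjusted p of 0.0759 missed the threshold. It passed with voom on the recovered reads (0.00626).

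NAMPT, the phosphoribosyltransferase that returns nicotinamide to the NAD pool (chromosome 7, 106248285 to 106286326), showed the largest change of the 9 tested genes. It had 86.6, 90.6 and 84.3 FPKM in the fatty acid libraries, against 42.6, 48.6 and 50.7 FPKM in the control libraries. The lowest fatty acid value is far above the highest control value. NAMPT rose to 87.2 ± 3.20 FPKM in the fatty acid group, against 47.3 ± 4.20 FPKM in the control group (SD, n = 3 each), a 1.84-fold difference of the means with a log2 fold change of 0.88 ± 0.07 (limma adjusted p = 0.000544). It rested on 30492 reads in the fatty acid libraries and 11669 in the control libraries, ranked 106 from the top of all tested genes and was called under all 17 settings run on it and with the pseudogene reads added. NAMPTP1, a processed pseudogene of NAMPT on chromosome 10, had 4.33, 4.90 and 4.07 FPKM in the fatty acid libraries, against 1.69, 1.57 and 2.59 FPKM in the control libraries, so the groups did not overlap there either. Reads of the gene and its copy may be exchanged. NAMPTP1 held as many reads as 1.41 ± 0.0834% of those of NAMPT in the fatty acid group and 1.14 ± 0.264% in the control group, and with both summed the log2 fold change of NAMPT stayed at 0.88. An antisense gene on the opposite strand, RP11-22N19.2, shares 8.7% of the exonic bases of NAMPT and had 1.12 FPKM in the fatty acid group and 1.14 FPKM in the control group.

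**Figure D2:**
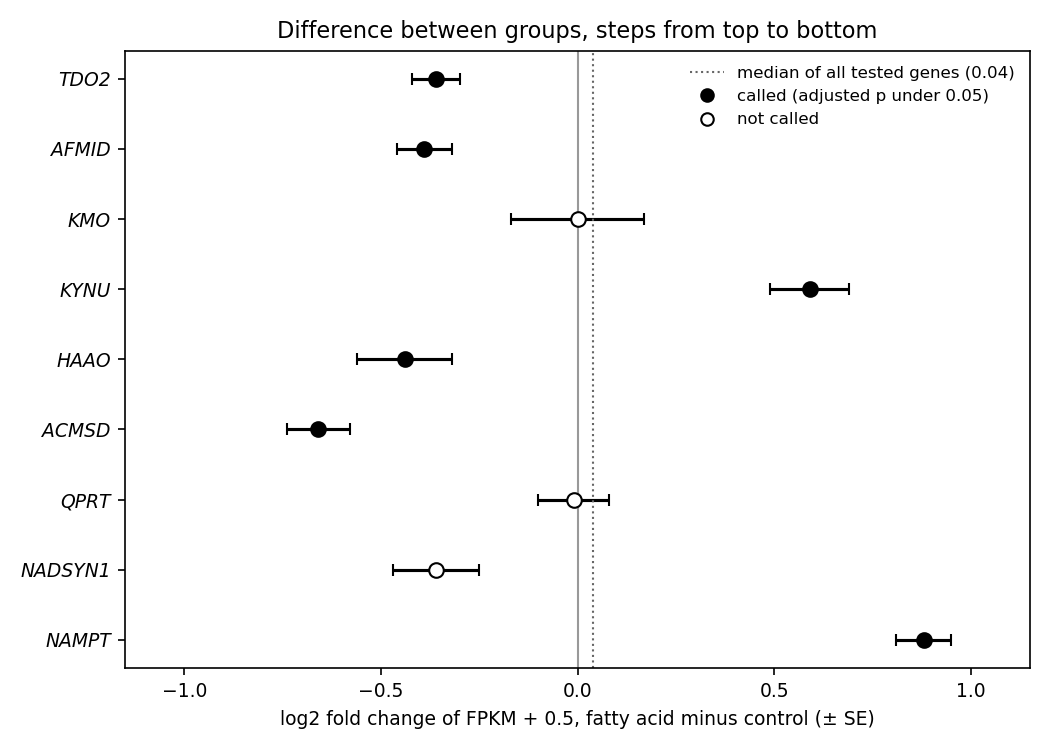
Log2 fold change of FPKM + 0.5 (fatty acid minus control, ± SE, 3 libraries per group) of the 9 tested genes, in pathway order from top to bottom. Filled points passed the adjusted p of 0.05 in limma and open points did not, and the dotted line is the median of all tested genes at 0.04. NAMPT (0.88) and KYNU (0.59) lie right of 0, and ACMSD (-0.66) lies farthest left.

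Ratios of 2 genes within a library do not depend on how libraries are scaled. The NAMPT to TDO2 ratio was 3.18, 3.22 and 3.13 in the fatty acid libraries, against 1.14, 1.44 and 1.44 in the control libraries. The fatty acid libraries were nearly alike and the groups lay far apart. On the log2(FPKM + 0.5) scale the ratio was 1.65 ± 0.02 in the fatty acid group and 0.41 ± 0.19 in the control group (SD, n = 3 each), a difference of 1.24. At the branch, the ACMSD to QPRT ratio was 0.467, 0.533 and 0.483 in the fatty acid libraries, against 0.677, 0.970 and 0.776 in the control libraries. Transcripts of the diverting enzyme were thus lower relative to those of the committing enzyme in each fatty acid library than in any control library. Between the neighbouring steps KYNU and HAAO, the ratio was 0.523, 0.671 and 0.588 in the fatty acid libraries, against 0.229, 0.243 and 0.251 in the control libraries, again without overlap. No test is given for these ratios, because the genes were chosen with the contrast known.

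**Figure D3:**
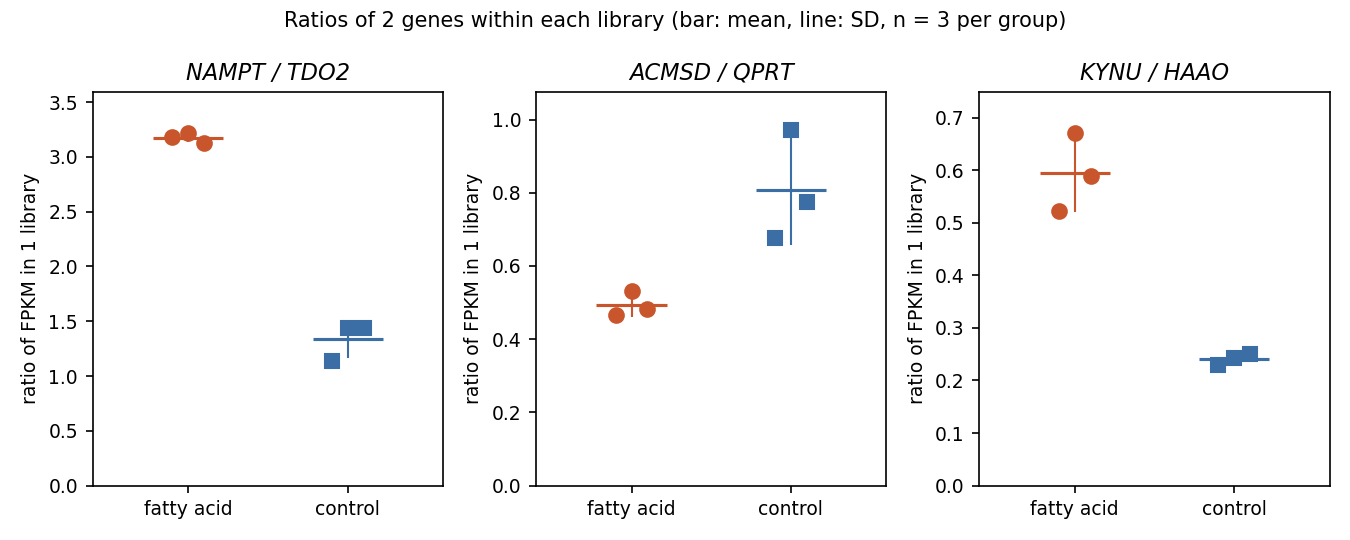
Ratio of the FPKM of 2 genes within each library, with the fatty acid group left of the control group, 1 point per library, bars for the mean and lines for the SD (n = 3 each). The NAMPT to TDO2 ratio is 3.13 or more in the fatty acid libraries and 1.44 or less in the control libraries.

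Levels spanned a wide range within the route. In the fatty acid group the order was NAMPT, TDO2, QPRT, AFMID, ACMSD, NADSYN1, HAAO, KYNU and KMO, with 87.2, 27.4, 10.3, 8.10, 5.08, 4.00, 3.23, 1.89 and 0.651 FPKM. In the control group AFMID (10.8 ± 0.732 FPKM) and QPRT (10.4 ± 1.42 FPKM) stood the other way round, with a gap smaller than either SD, and the order of the rest was the same. In the fatty acid group NADSYN1 (SD 0.562) and HAAO (SD 0.567) were closer to each other than the sum of their SDs. These levels depend on the length by which reads are divided, since the deposited length counts all annotated exons of a gene, 17600 bases for KYNU and 16263 for NADSYN1. Divided instead by the shortest principal protein-coding transcript of GENCODE 29, of 1576 bases for KYNU and 2773 for NADSYN1, KYNU came to 21.1 FPKM in the fatty acid group and 12.2 FPKM in the control group. NADSYN1 came to 23.4 FPKM in the fatty acid group and 30.9 FPKM in the control group on that basis, so that in the fatty acid group both stood above AFMID, QPRT and ACMSD. TDO2 had 84.9 FPKM in the fatty acid group and 109.0 FPKM in the control group, and NAMPT had 172.0 FPKM in the fatty acid group and 93.5 FPKM in the control group, so TDO2 stood above NAMPT in the control group but not in the fatty acid group. GENCODE 29 also lists a second principal transcript of KYNU, of 15316 bases, on which KYNU came to 2.18 FPKM in the fatty acid group and 1.26 FPKM in the control group, below AFMID, QPRT and ACMSD, so its place in the order depends on the transcript. The ratio of a gene's FPKM between the groups does not depend on its length, but for a low gene the log2 fold change with the added 0.5 does.

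Around these genes, 4 further lists held 55 genes of NAD and tryptophan metabolism, of which 43 were tested, 4 rose and 5 fell (20.9% called, against 12.9% of all tested genes). Their median log2 fold change was 0.02, against 0.04 over all tested genes. Of 8 other NAD synthesis genes 6 were tested and none was called by limma or by voom on the recovered reads, with 1 at an unadjusted limma p under 0.05. That gene was NMNAT1, the nuclear adenylyltransferase that joins the nucleotides of both routes to NAD or its acid form, with 3.14, 3.35 and 3.21 FPKM in the fatty acid libraries, against 3.82, 3.87 and 3.69 FPKM in the control libraries (log2 fold change -0.20 ± 0.07, limma adjusted p = 0.107). NAPRT, which starts NAD synthesis from nicotinate, had 7.75 ± 1.38 FPKM in the fatty acid group and 10.1 ± 2.07 FPKM in the control group (SD, n = 3 each, limma adjusted p = 0.184), and its groups overlapped. Relative to NAMPT its level was 0.0942, 0.0686 and 0.105 in the fatty acid libraries, against 0.293, 0.178 and 0.182 in the control libraries, without overlap. That ratio contains the rise of NAMPT, which was known when the genes were chosen. It is given without a test and is not read as a change of NAPRT.

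Among 14 genes of other tryptophan use, 10 were tested, 1 rose and 4 fell (5 of 10 called, against 12.9% of all tested genes, 8.22% higher and 4.68% lower). The riser was WARS, the cytosolic tryptophanyl-tRNA synthetase, with 13.7, 15.3 and 14.5 FPKM in the fatty acid libraries, against 9.26, 8.84 and 8.50 FPKM in the control libraries (log2 fold change 0.68 ± 0.07, limma adjusted p = 0.00108). KYAT1, an aminotransferase that forms kynurenic acid from kynurenine, fell to 3.43, 2.84 and 3.43 FPKM in the fatty acid libraries, against 5.76, 5.32 and 5.23 FPKM in the control libraries (-0.67 ± 0.09, limma adjusted p = 0.0051). The groups of both genes lie well apart. The other falls were INMT, a methyltransferase of tryptamine, at -0.96 ± 0.21 on 65 reads in the fatty acid libraries and 139 in the control libraries, DDC, the aromatic amino acid decarboxylase, at -0.26 ± 0.06, and the monoamine oxidase gene MAOB at -0.24 ± 0.06. The limma adjusted p of these 3 were 0.0289, 0.0331 and 0.035, and each was lost with no filter (0.0802, 0.0577 and 0.0692), without control replicate 1 (0.0615, 0.055 and 0.0589), without control replicate 3 (0.0843, 0.0856 and 0.0817) and without any 1 fatty acid library (0.0747 to 0.123). DDC and MAOB were also lost without the intensity trend (0.0745 and 0.0871) and after rescaling to TPM, where their log2 fold changes were -0.13 and -0.11 (0.321 and 0.392), and INMT was at -1.57 with voom (0.00111).

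Of 22 genes that consume NAD or nicotinamide 20 were tested, 3 rose and 1 fell (4 of 20 called, against 12.9% of all tested genes, 8.22% higher and 4.68% lower). Their median log2 fold change was 0.10, against 0.04 over all tested genes. NNMT, which methylates nicotinamide and so competes with NAMPT for it, had 218.8, 218.6 and 220.4 FPKM in the fatty acid libraries, against 180.2, 169.7 and 167.4 FPKM in the control libraries (0.35 ± 0.05, limma adjusted p = 0.00558). On the log2 scale NAMPT rose by more than NNMT (0.88 against 0.35), though not in FPKM. The NNMT to NAMPT ratio was thus 2.53, 2.41 and 2.61 in the fatty acid libraries, against 4.23, 3.49 and 3.30 in the control libraries. PARP1 and PARP14, poly- and mono-ADP-ribosyltransferases, rose by 0.30 ± 0.05 and 0.30 ± 0.08 (limma adjusted p = 0.0151 and 0.0405). SIRT7, a nuclear NAD-dependent deacylase, fell to 2.28 ± 0.160 FPKM in the fatty acid group, against 3.25 ± 0.242 FPKM in the control group (SD, n = 3 each, limma adjusted p = 0.025). PARP1 was not called without any 1 fatty acid library (0.0562 to 0.0823), SIRT7 was lost when any library but control replicate 2 was left out (0.0509 to 0.102), with no filter (0.0651) or after rescaling to TPM (0.0587), and PARP14 was lost when any library but fatty acid replicate 3 was left out (0.0568 to 0.152), as well as with median of ratios (0.0572), quantile (0.0671) and nuclear read scaling (0.0601), with no filter (0.0801) and without the intensity trend (0.0708). Of 11 transport genes 7 were tested and none was called by limma, 0 of them had an unadjusted p under 0.05, and voom called 1, SLC36A4. The smallest p were those of SLC36A4, an amino acid transporter that takes tryptophan, and of the solute carrier SLC12A8, with log2 fold changes of 0.28 ± 0.12 and 0.18 ± 0.08 (limma adjusted p = 0.168 and 0.19).

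**Figure D4:**
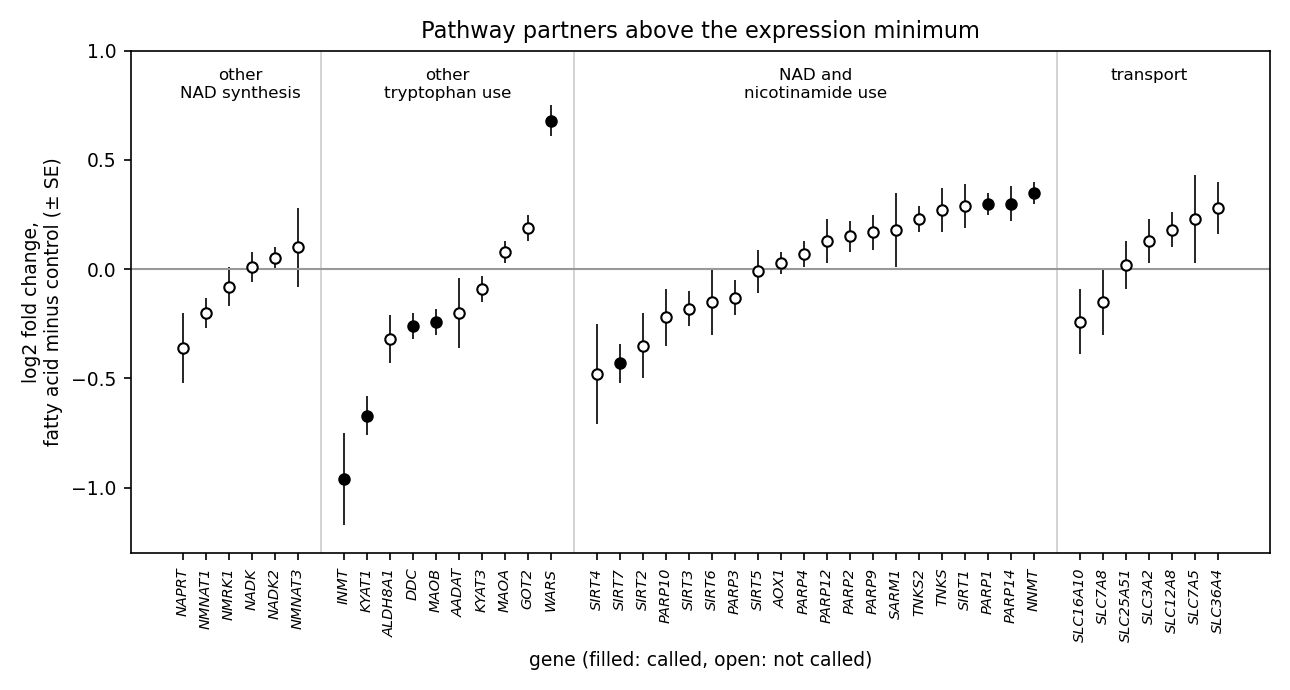
Log2 fold change (fatty acid minus control, ± SE, 3 libraries per group) of the 43 tested genes of the 4 further lists, sorted within each list. Filled points passed the adjusted p of 0.05 in limma and open points did not. INMT (-0.96), KYAT1 (-0.67) and WARS (0.68) lie farthest from 0.

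The libraries and cell markers bear on these values. Reads per library came to 8.36 to 15.94 M in the fatty acid group and 6.33 to 11.82 M in the control group, and mitochondrially encoded genes took 9.15% to 11.91% of them in the fatty acid group and 12.23% to 14.96% in the control group. All 14 hepatocyte markers were tested, and 10 fell and 3 rose (92.9% called), against 12.9% of all tested genes called, 4.68% lower and 8.22% higher. Their summed level was 13851 to 14350 FPKM in the fatty acid libraries, against 17414 to 18177 FPKM in the control libraries. ALB, which encodes albumin, fell to 7127 ± 306.0 FPKM in the fatty acid group, against 12025 ± 318.0 FPKM in the control group, whereas SERPINA1, which encodes alpha-1 antitrypsin, rose (SD, n = 3 each, limma adjusted p = 0.000882 and 0.0289). ALB alone fell by more FPKM than the sum did, so the summed level of the other hepatocyte markers did not fall. The fall of TDO2, AFMID, HAAO and ACMSD thus went with a fall of 10 of the 14 hepatocyte markers, whose part in it was not tested. In bulk RNA fewer cells of a type and less RNA per cell cannot be told apart. Of 8 biliary markers 4 were tested and none was called by limma or voom, 1 having an unadjusted limma p under 0.05, with summed levels of 361.0 to 375.0 FPKM in the fatty acid libraries and 362.0 to 435.0 FPKM in the control libraries, of which KRT19 made up 85.5% in the fatty acid group and 86.8% in the control group and SPP1 most of the rest, while EPCAM was listed at 0 throughout. Of 8 myeloid markers, a cell type that expresses KYNU and KMO, 3 were tested, none was called by limma or voom, and 0 had an unadjusted limma p under 0.05. Their summed level was 15.3 to 16.1 FPKM in the fatty acid libraries and 11.6 to 16.0 FPKM in the control libraries, mostly CD14, with PTPRC at 0.025 FPKM or less. Of 8 mesenchymal markers 6 were tested and 1, LUM, rose in limma. By voom 4 of the 6 were called, where voom called 2999 of all 14661 tested genes, more than limma did. Without overlap of the groups, 2 of the 6 lay higher and 2 lower (37.1% of all tested genes did not overlap), and their median log2 fold change was 0.0. Summed levels were 117.0 to 125.0 FPKM in the fatty acid libraries and 100.0 to 110.0 FPKM in the control libraries. The largest part was LUM, with 60.7 ± 1.88 FPKM in the fatty acid group and 44.3 ± 3.89 FPKM in the control group (SD, n = 3 each). VIM was listed at 0.092 FPKM or less. How reads shared by overlapping genes were counted is not stated, so values at or near 0 such as those of VIM and EPCAM may fall short of the true level. The part of these cell types in the changes of KYNU and NAMPT was not tested.

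The split of calls over all genes moved with the scaling, and so did some calls of the route. As deposited 63.7% of the calls were higher, against 48.8% with median of ratios scaling, 49.5% with quantile normalization, 45.8% with scaling to nuclear reads and 86.5% after rescaling to TPM, which shifted the median of all genes by 0.14. After rescaling to TPM, TDO2 and AFMID missed the threshold as well as HAAO (log2 fold changes -0.23 and -0.27, limma adjusted p = 0.0828 and 0.0618). TDO2 was also lost without fatty acid replicate 1 (0.0555), and AFMID and KYNU without fatty acid replicate 1 (0.0678 and 0.0754) or 2 (0.0653 and 0.0578). The direction of TDO2, AFMID, KYNU, HAAO, ACMSD and NAMPT was the same under every setting run.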

How the data were processed

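After 14 days of growth and 14 of differentiation, stranded mRNA libraries took 100 ng of RNA each, per the labels' protocols. Named in the submitters' processing notes are the build GRCh38, Subread 1.5.1 with featureCounts, and STAR 2.5.2. The authors deposited FPKM values with 3 decimals beside the position and length of each gene. FPKM times length came out as whole reads for 100% of the values fine enough to tell (tolerance 0.02 reads beyond rounding), so depth is known. The floors of 3 reads cover counting error only, whereas the limma intervals rest on the spread between samples.

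Groups and replicate numbers come from the sample titles. The design was limma 3.58.1 (R 4.3.3, intensity trend) on log2(FPKM + 0.5) for fatty acid against control, with no covariate. It was also run on simulated counts. Their spread was set in advance and not taken from these samples, so that run does not show how the fit performs on them. The members and lists were chosen with earlier results of these data known. All 10 genes are named, as is each called gene of the partner lists, or the 2 of smallest p in a list without calls, and 2 markers per list at most by level; EPCAM, PTPRC and VIM were named after their values were seen. Alternatives varied the pseudocount, minimum, scaling, trend, block and libraries, and voom used the recovered reads. Added after seeing the data were the NAMPTP1 sum and the shortest and longest principal transcript lengths. Promoters are RefSeq's. Gene models came from GENCODE 29, whose exon length equals the deposited one for 94.9% of shared genes and for all 10 here. Figures used Python 3.11.15 and matplotlib 3.10.9.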

Additional observations from a re-analysis of the deposited data

How the results depend on the processing

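Of 371 recomputed log2 fold changes of 22 named genes, 300 kept their direction and side of the threshold, 59 lost the call, 3 gained it and 9 changed sign, all of KMO and QPRT, which were not called. KMO, at 0.00, was at 0.01 with a pseudocount of 0.1, 0.04 with quantile normalization, 0.11 after rescaling to TPM and -0.12 to 0.08 without any 1 library, 0.04 without control replicate 3 and 0.02 without fatty acid replicate 1 among them. QPRT, at -0.01, was at 0.12 after rescaling to TPM and at -0.09 to 0.09 without any 1 library, above 0 without control replicate 1 (0.09) and fatty acid replicate 2 (0.01). Of the 10 genes those called higher numbered 2, and 1 with a minimum mean of 2 FPKM, which leaves KYNU out, and 1 to 2 without any 1 library. Those called lower numbered 4, and 1 after rescaling to TPM and 2 to 3 without any 1 library. Of the partner lists 4 genes were higher, and 9 after rescaling to TPM, 9 with voom on recovered reads and 2 to 4 without any 1 library. Partner genes called lower numbered 5, and 1 with no filter, 2 after rescaling to TPM, 3 without the intensity trend, 3 with the replicate block and 1 to 5 without any 1 library. Over all genes 1891 were called, and 977 with no filter, 3023 after rescaling to TPM, 1101 without the intensity trend, 2999 with voom and 463 to 1629 without any 1 library; the cause was not tested. The NAMPT to TDO2 difference of 1.24 ran from 1.13 to 1.29 without any 1 library. Correlations of deviations were 0.012, 0.084 and 0.022 for samples of the same replicate number and -0.094 to 0.073 for the others. With so few samples these values cannot decide whether replicate numbers pair the samples. The replicate block gave 1474 calls over all genes, 2 higher and 5 lower among the 10 genes, NADSYN1 being the added one (limma adjusted p = 0.044), while INMT (0.0572) and DDC (0.0654) lost their calls. Depth limits KMO and IDO1 most.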
